A study of Mus musculus with 12 samples.

Results

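The genes described here are those of the clotting cascade, its inhibitors, fibrinolysis and the complement system that the liver makes for the blood. They were 47 genes chosen by symbol from a deposited table of 27105 genes, and all 47 were found. The table held read counts for RNA of mouse liver after a ketogenic diet, which is low in carbohydrate and high in fat and raises ketone body production by the liver, and after a control diet. Each diet had 6 libraries, described by the submitters as biological replicates and named below by diet and number (ketogenic 1, control 1). Strain, sex, age, genotype, composition and length of the diets are not stated in the labels. Whether each library came from a separate animal is not stated beyond that description. The p-values therefore set the difference between diets against the spread between these libraries, which may not be that between animals.

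Hepatocytes secrete most clotting factors as inactive precursors that cut and activate each other in turn until thrombin turns fibrinogen into fibrin. Plasma inhibitors of the serpin family and the protein C system hold the cascade back, and plasmin dissolves the clot. Complement is a second cascade of plasma proteases. It is started by antibody through C1, by sugars through mannose-binding lectins or by slow turnover of C3, and it ends in a pore built from C5 to C9. Many of these genes, fibrinogen, C3 and C9 among them, belong to the acute phase genes, which hepatocytes express at a changed rate when interleukin 6 or related cytokines act on them.

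The fibrinogen chains and C9 carry the largest called differences of the set, and the 250 bases before the start of each fibrinogen gene, which lie side by side, are shown so that shared sequence can be seen. They are RefSeq promoters of build GRCm38.p6, whose coordinates are not those of the deposited table, printed on the strand of the gene. Capitals mark matches, on either strand, to the motifs CTGGGA (interleukin 6 response element) and TTCNNNGAA (STAT).
Fga, chr3:83025903-83026152, plus strand: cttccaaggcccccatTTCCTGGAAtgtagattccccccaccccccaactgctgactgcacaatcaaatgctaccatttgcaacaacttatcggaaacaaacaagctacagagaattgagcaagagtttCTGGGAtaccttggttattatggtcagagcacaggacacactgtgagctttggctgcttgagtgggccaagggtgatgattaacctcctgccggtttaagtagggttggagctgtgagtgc
Fgb, chr3:83049864-83050113, minus strand: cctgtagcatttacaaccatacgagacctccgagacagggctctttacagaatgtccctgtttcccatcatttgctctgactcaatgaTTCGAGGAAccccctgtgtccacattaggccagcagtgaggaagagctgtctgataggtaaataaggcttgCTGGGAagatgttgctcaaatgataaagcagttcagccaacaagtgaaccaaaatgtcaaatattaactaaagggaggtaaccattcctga
Fgg, chr3:83007474-83007723, plus strand: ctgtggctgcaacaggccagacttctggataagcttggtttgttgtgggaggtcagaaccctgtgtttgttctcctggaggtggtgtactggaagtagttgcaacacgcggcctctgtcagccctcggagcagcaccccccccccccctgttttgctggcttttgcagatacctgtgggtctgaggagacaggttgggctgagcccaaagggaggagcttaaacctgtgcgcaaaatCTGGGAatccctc

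CTGGGA stood once in each fibrinogen window, starting 121 bases before the start of Fga, 91 before that of Fgb and 13 before that of Fgg. TTCNNNGAA was found in Fga, as TTCCTGGAA, and in Fgb, as TTCGAGGAA. The C/EBP motif TTNNGNAAT was not found in these windows. CTGGGA occurred in 27.0% of all 32851 promoter windows of this length, TTNNGNAAT in 10.2% and TTCNNNGAA in 7.02%. Of the 47 genes, 36 had a promoter in the RefSeq table, with 38 windows in all, and of those 38 windows 42.1% held CTGGGA, 26.3% TTNNGNAAT and 18.4% TTCNNNGAA. CAAAGTNCA, for HNF4, was in 2.63% of the 38 and 1.19% of all, and TATAAA, the box near many start sites, in 7.89% of the 38 and 12.4% of all. All motifs were searched on both strands, and a match describes letters, not a bound site.

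Counts were scaled with TMM factors to CPM, each count as a share of its library on a common scale, and the diets were compared with edgeR's quasi-likelihood test. The libraries held 30176579 to 33538911 counts, and 13995 genes passed the filter on low counts, all 47 among them. The threshold was an adjusted p under 0.05 (Benjamini-Hochberg) over these 13995 genes, and genes that passed it are said to be called. Fold changes are log2 ketogenic over control ± SE, so that a negative value means lower on the ketogenic diet. In bulk tissue, fewer cells of a type and less RNA per cell cannot be told apart. All 12 hepatocyte markers were present in every library, with a summed level of 87900 to 111000 CPM in ketogenic and 89700 to 127000 CPM in control libraries. Most of this sum is Alb, with a mean of 59400 CPM on the ketogenic and 73200 CPM on the control diet. The log2 fold changes of the 12 markers ran from -0.483 to 0.737.

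Of the 47 genes, 12 fell on the ketogenic diet, 0 rose and 35 did not pass the threshold. Across all genes tested, 3.78% were called, 1.44% lower and 2.34% higher. The 47 genes were chosen with earlier results of these data known, so their contrasts with all genes are descriptions and not tests. The count of 0 rises also depends on that choice, since the complement gene Cfd, outside the set, was called higher (log2 fold change 5.67). The 12 were all 3 fibrinogen chains (Fga, Fgb, Fgg), the clotting proteases F7 and F12, the related protease Hgfac, antithrombin (Serpinc1), the fibrinolysis inhibitor Cpb2, the complement components C1s1 and C9, and the complement regulators C4bp and Vtn. Whether called or not, 43 of 47 fold changes, or 91.5%, were below 0, against 50.1% of all genes tested. The median log2 fold change of the 47 was -0.35, against -0.001 over all genes tested. By part, 8 of 25 coagulation genes (median -0.33) and 4 of 22 complement genes (median -0.40) were called lower. Outside the set, 55.6% of 27 other coagulation and fibrinolysis genes (median -0.102) and 51.5% of 33 other complement genes (median -0.016) were below 0. Those shares lie near that of all genes, so the shift describes the chosen 47 and not these pathways as a whole.

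**Figure D1:**
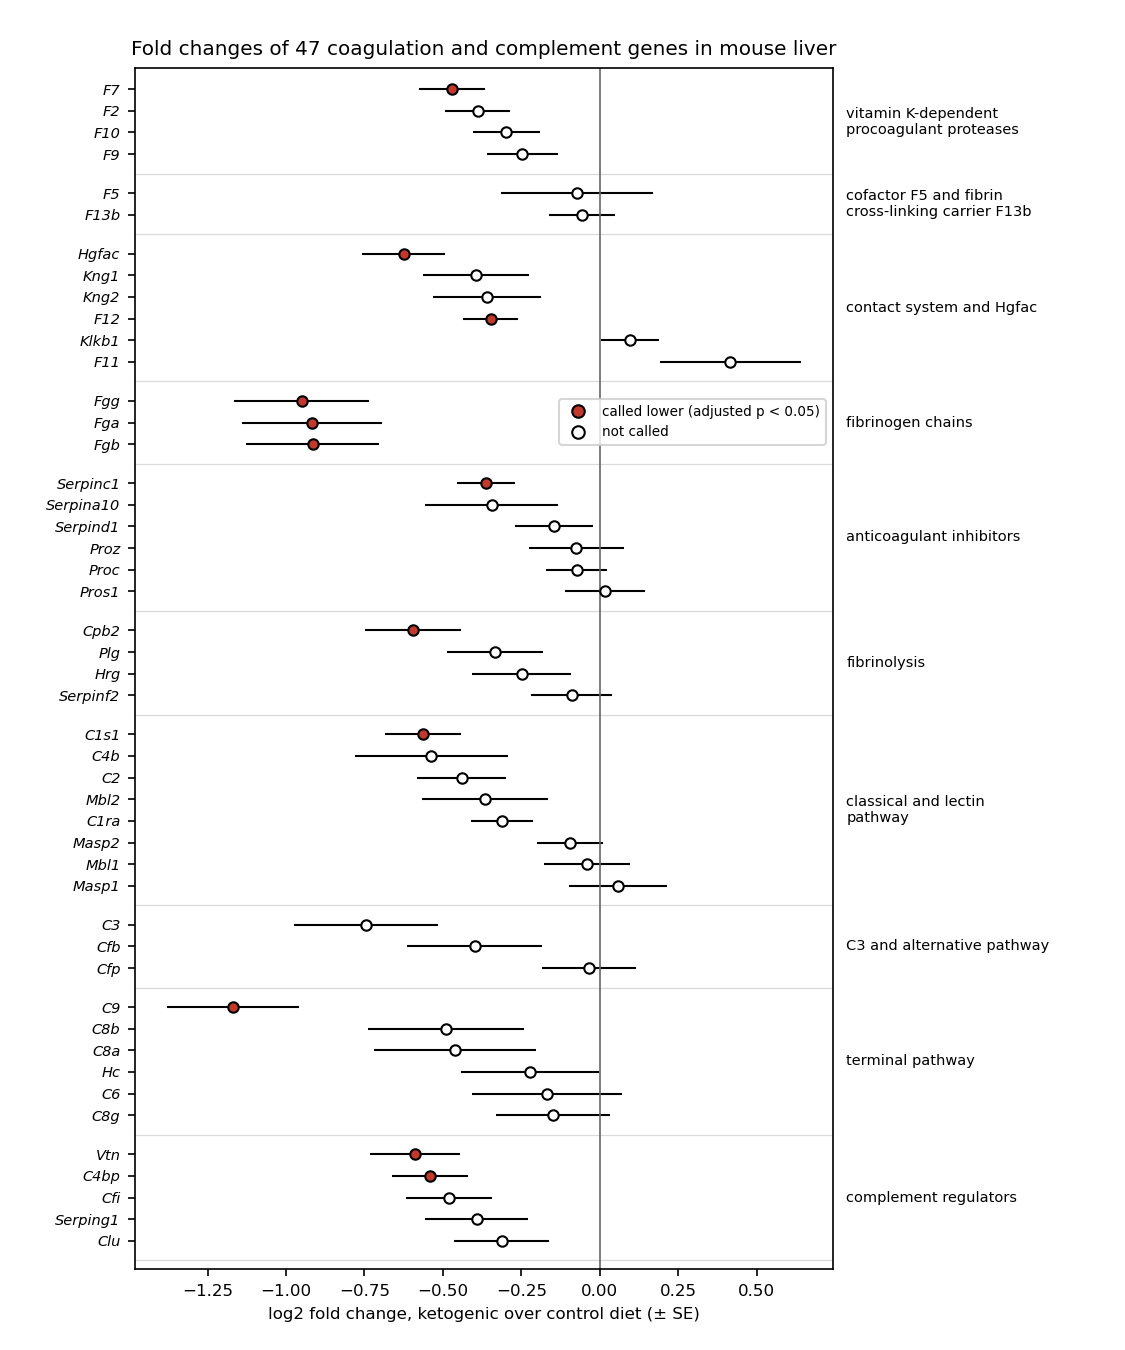
Log2 fold change, ketogenic over control diet, of the 47 genes (points, with SE bars) by role. Filled points are the 12 genes called lower, which run from -1.17 in C9 to -0.35 in F12, and open points are the 35 genes not called.

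No gene of the set was called higher by edgeR, DESeq2 or limma-voom, and at an unadjusted p under 0.05 edgeR had 23 lower and 0 higher, against 7.67% of all genes lower and 9.05% higher. DESeq2 called 16 lower, with F2, C1ra, C3 and Cfi beside the 12, against 3.15% of all genes. The same 12 were called by limma-voom, against 1.40% of all genes. Most of the set is abundant: 41 of the 47 had a mean of at least 100 CPM, and 11 of those 41 were called lower, against 3.50% of all 1543 genes at that level. With each library left out in turn, between 3 and 14 of the 47 were called lower and 0 higher. The count was 3 without ketogenic 6 or without control 3, 4 without control 1, 5 without ketogenic 1, 2 or 3, 6 without control 6 and 7 without control 2. The number of all genes called lower moved as well, from 106 without control 3 to 316 without ketogenic 4, against 201 with all libraries. Scaled by library size in place of TMM factors, which moved the median of all genes to 0.07, 10 of the 47 were lower and 0 higher, while all genes gave 448 rises and 127 falls, a share of rises of 77.9% in place of 62.0%.

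In 6 of the 47 genes every ketogenic library lay below every control library (F2, F7, F12, Serpinc1, C1s1 and C3), against 1.37% of all genes tested, and in 0 genes every one lay above, against 2.17%. Without control 5 the number was 14, against 1.83% of all genes, and without ketogenic 5 it was 11, against 1.83%. In 28 genes all 6 ketogenic libraries were below the control mean, and in 1 gene, Klkb1, all 6 were above it, against 10.3% of all genes tested below and 8.65% above. Together the 47 genes took 3.82 ± 0.442% of counts on the ketogenic diet and 5.45 ± 1.05% on the control diet (mean ± SD, n = 6 each). The median coefficient of variation across libraries was 15.2% on the ketogenic and 20.1% on the control diet.

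Libraries differed in the whole set as well as in single genes. Control 5 was the lowest control library in 36 of the 47 genes, and control 6 was the highest in 26. Among ketogenic libraries, ketogenic 4 was lowest in 24 genes and ketogenic 5 highest in 21. Ketogenic 4 had a median correlation of 0.951 with the other libraries of its diet, against 0.972 to 0.984 for the other 11. Its levels also ran with transcript length (Spearman rho -0.551 across genes, which are not independent, against -0.325 to 0.354), short transcripts being high. Without ketogenic 4, 14 of the 47 were called lower, the 12 with F2 and C2.

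**Figure D2:**
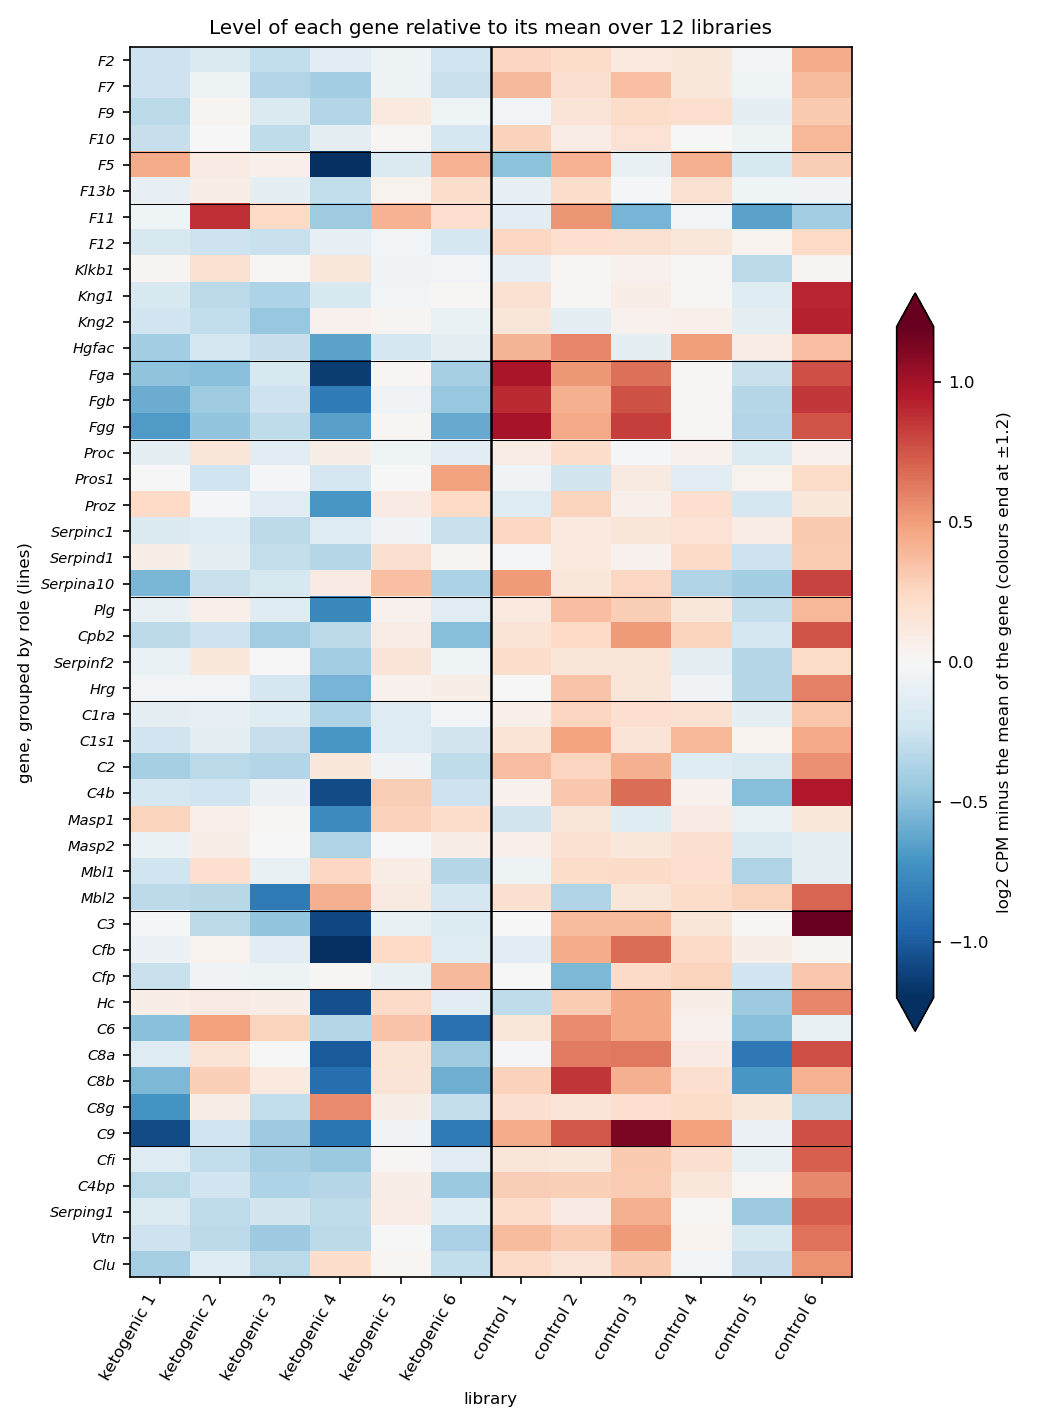
Log2 CPM of each of the 47 genes (rows, grouped by role) in each library (columns, ketogenic 1 to 6, then control 1 to 6), as the difference from the mean of the gene over the 12 libraries. Red is above and blue below that mean. Control 5 is the lowest library of its diet in 36 genes and control 6 the highest in 26.

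Fibrinogen is built from an alpha, a beta and a gamma chain, coded by Fga, Fgb and Fgg, and thrombin turns it into the fibrin of a clot. All 3 chains fell, and to nearly the same extent. Fga (ENSMUSG00000028001, chromosome 3, 82933383 to 82940934, with positions as deposited, for which the labels name no build) had a lowest, median and highest level of 2270, 3700 and 5090 CPM on the ketogenic diet, against 4170, 7550 and 9920 CPM on the control diet. Fgb (ENSMUSG00000033831, chromosome 3, 82947448 to 82957170) had a lowest, median and highest level of 2480, 3270 and 4330 CPM on the ketogenic diet, against 3510, 6760 and 8290 CPM on the control diet. Fgg (ENSMUSG00000033860, chromosome 3, 82915031 to 82922356) had a lowest, median and highest level of 2330, 2570 and 3800 CPM on the ketogenic diet, against 2940, 5730 and 7430 CPM on the control diet. In each chain the diets overlapped, since control 5 lay within the ketogenic range in all 3 and control 4 did so in Fga and Fgg.

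Fga averaged 3780 ± 947 CPM on the ketogenic diet and 7140 ± 2170 CPM on the control diet (mean ± SD, n = 6 each), with a log2 fold change -0.92 ± 0.22, adjusted p = 0.0362 by edgeR. Fgb averaged 3340 ± 640 CPM on the ketogenic and 6310 ± 1980 CPM on the control diet (log2 fold change -0.92 ± 0.21, adjusted p = 0.0273). Fgg averaged 2780 ± 561 CPM on the ketogenic and 5370 ± 1750 CPM on the control diet (log2 fold change -0.95 ± 0.21, adjusted p = 0.0247). Summed, the chains held 7130 to 13200 CPM in ketogenic and 10600 to 25600 CPM in control libraries. With 1 library left out, the fold changes stayed between -1.07 and -0.80, but the calls did not all hold. That of Fga was lost without ketogenic 1, 2, 3 or 6 or control 1, 2, 3 or 6 (adjusted p 0.0578 to 0.0882 in those 8 fits). That of Fgb was lost without ketogenic 1, 2 or 6 or control 1, 3 or 6 (0.0542 to 0.0739), and that of Fgg without ketogenic 1, 2 or 6 or control 1 or 3 (0.0516 to 0.0674).

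The ratio of 2 chains within a library does not depend on how libraries are scaled. The log2 ratio of Fga over Fgb was 0.158 ± 0.154 on the ketogenic and 0.186 ± 0.0879 on the control diet (mean ± SD, n = 6 each). That of Fgg over Fgb was -0.267 ± 0.121 on the ketogenic and -0.236 ± 0.0631 on the control diet, and that of Fga over Fgg was 0.424 ± 0.261 on the ketogenic and 0.422 ± 0.0884 on the control diet. In all 3 ratios the mean of the diets differed by less than the SD within either diet. Ketogenic 4 stood apart, with an Fga over Fgg ratio of -0.069 against 0.395 to 0.631 in the other ketogenic libraries. Fga has the longer transcript of this pair (2587 against 1741 bases in GENCODE M21). Ketogenic 4 was also lowest in Fga over Fgb, at -0.131 against 0.098 to 0.282 in the other ketogenic libraries. In that pair Fga has the shorter transcript (3810 bases for Fgb). The part of transcript length in these ratios was not tested. The neighbours lie side by side on chromosome 3, with 11027 bases between Fgg and Fga and 6514 between Fga and Fgb, which is read from the other strand.

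**Figure D3:**
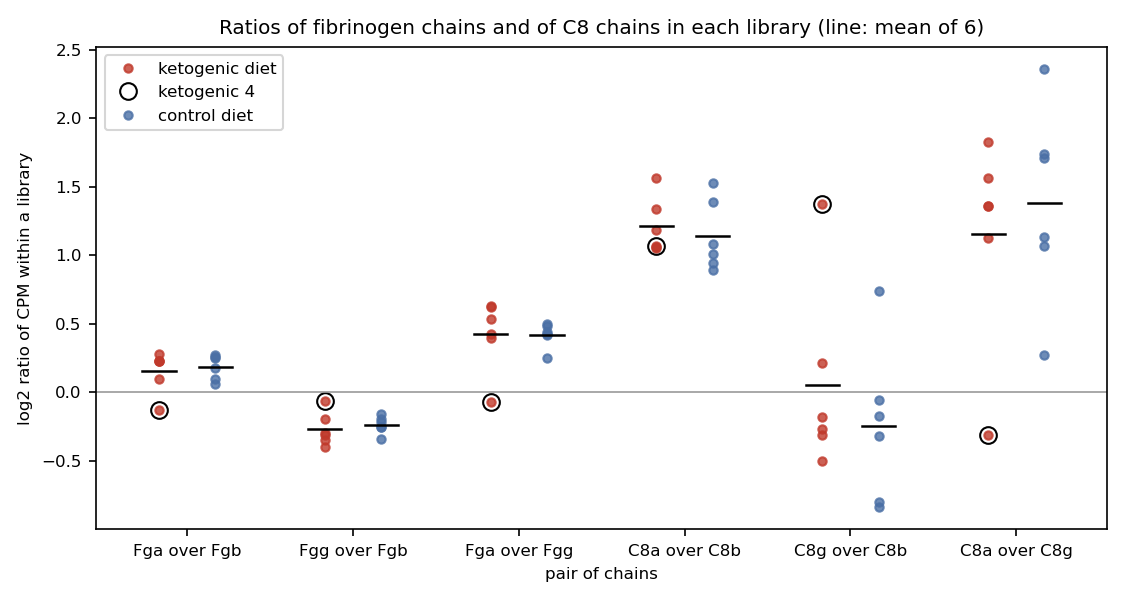
Log2 ratio of CPM between pairs of fibrinogen chains and of C8 chains within each library (points), with the mean of 6 libraries as a line. Ketogenic 4, circled, is the lowest ketogenic library in Fga over Fgb (-0.131), in Fga over Fgg (-0.069) and in C8a over C8g (-0.309).

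F2, F7, F9 and F10 code for the proteases prothrombin and factors VII, IX and X, whose precursors need vitamin K for a modification that lets them bind membranes. Among these 4, F7 fell and the others did not pass the threshold, although all 4 had an unadjusted p under 0.05. F7 (ENSMUSG00000031443, chromosome 8, 13076034 to 13085809), whose protease starts the cascade together with tissue factor, had a lowest, median and highest level of 64.8, 72.1 and 82.5 CPM on the ketogenic diet, against 83.4, 104 and 113 CPM on the control diet (log2 fold change -0.47 ± 0.10, adjusted p = 0.0226). The diets did not overlap. The call was lost without ketogenic 3 or 6 or control 1 or 3 (adjusted p 0.0553 to 0.0673 in those 4 fits) and with no filter on low counts (adjusted p = 0.0562).

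F2 (ENSMUSG00000027249, chromosome 2, 91455665 to 91466759), the precursor of thrombin and the most abundant of the 4, had a lowest, median and highest level of 1390, 1490 and 1640 CPM on the ketogenic diet, against 1670, 1930 and 2330 CPM on the control diet. The highest ketogenic and the lowest control library were 1640 and 1670 CPM, so that the diets did not overlap, by a small margin. F2 just missed the threshold (log2 fold change -0.39 ± 0.10, adjusted p = 0.0518) and was called by DESeq2, with at least 1 CPM in 6 libraries as the filter, with the length trend removed, with 1 surrogate variable, and without ketogenic 4 or control 5. F10, neighbour of F7 at a distance of 1499 bases, was at -0.30 ± 0.11 (adjusted p = 0.157) and F9, on the X chromosome, at -0.25 ± 0.11 (adjusted p = 0.289). The log2 ratio of F7 over F10 was -2.36 ± 0.112 on the ketogenic and -2.19 ± 0.0755 on the control diet, with overlap between libraries, and this difference was not tested.

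F5 codes for factor V, the cofactor with which factor X activates prothrombin, and F13b for the carrier chain of the enzyme that cross-links fibrin. Neither passed the threshold by edgeR, DESeq2 or limma-voom, and at an unadjusted p under 0.05 there were 0 as well. F5 (ENSMUSG00000026579, chromosome 1, 163979407 to 164047846) had a lowest, median and highest level of 210, 512 and 659 CPM on the ketogenic diet, against 344, 526 and 652 CPM on the control diet. F13b (ENSMUSG00000026368, chromosome 1, 139429440 to 139451490) had a lowest, median and highest level of 146, 176 and 207 CPM on the ketogenic diet, against 168, 176 and 207 CPM on the control diet. The diets covered much the same range in both genes (F5 -0.07 ± 0.24, adjusted p = 0.932; F13b -0.06 ± 0.10, adjusted p = 0.861). The direction of both flipped to 0.01 with library size as the scale. Ketogenic 4 had the lowest F5 level of all libraries, and the sign of F5 changed without it (0.085) or without control 4.

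The contact system starts clotting on charged surfaces through factor XII (F12), plasma prekallikrein (Klkb1), kininogen (Kng1 and its copy Kng2 in mice) and factor XI (F11). Hgfac, activator of hepatocyte growth factor, is a relative of factor XII. Hgfac and F12 fell, 0 of the 6 rose, and 4 did not pass the threshold. Hgfac (ENSMUSG00000029102, chromosome 5, 35198853 to 35205805) had a lowest, median and highest level of 105, 138 and 152 CPM on the ketogenic diet, against 152, 214 and 245 CPM on the control diet (log2 fold change -0.62 ± 0.13, adjusted p = 0.0163). Its highest ketogenic and lowest control library both had 152 CPM, control 3 being the low one. The call held in all 12 fits with 1 library left out (adjusted p 0.0110 to 0.0414).

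F12 (ENSMUSG00000021492, chromosome 13, 55565771 to 55574606) had a lowest, median and highest level of 407, 427 and 478 CPM on the ketogenic diet, against 504, 560 and 581 CPM on the control diet. The diets did not overlap and the spread was small, with a coefficient of variation of 6.27% on the ketogenic and 5.27% on the control diet. F12 was called at -0.35 ± 0.09 (adjusted p = 0.0396), but not with library size as the scale (adjusted p = 0.0798 at -0.28) or with no filter on low counts (adjusted p = 0.211), nor in 9 of the 12 fits with 1 library left out, those without ketogenic 1, 2, 3 or 6 or control 1, 2, 3, 4 or 6 (adjusted p 0.0542 to 0.1 in those 9).

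Kng1 (ENSMUSG00000022875, chromosome 16, 22876615 to 22900828), the most abundant gene of this group, had a lowest, median and highest level of 1370, 1560 and 1780 CPM on the ketogenic diet, against 1600, 1830 and 3340 CPM on the control diet. Control 6 lay far above the other controls, and the gene was not called (log2 fold change -0.40 ± 0.17, adjusted p = 0.242). Kng2 had the same pattern, with 471 CPM in control 6 and 231 to 275 CPM in the other controls (log2 fold change -0.36 ± 0.17, adjusted p = 0.319). The log2 ratio of Kng2 over Kng1 was -2.81 ± 0.121 on the ketogenic and -2.85 ± 0.0589 on the control diet. These genes are near copies, 28383 bases apart, and may share reads. F11, at 0.42 ± 0.22 (adjusted p = 0.392), and its neighbour Klkb1, at 0.10 ± 0.09 (adjusted p = 0.699), had the highest fold changes of the 47 genes. F11 was at 68.0 ± 21.0 CPM on the ketogenic and 51.0 ± 16.7 CPM on the control diet, with ketogenic 2 highest at 104 CPM.

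Of the 6 anticoagulant genes, Serpinc1 fell, 0 rose and 5 did not pass the threshold. Serpinc1 (ENSMUSG00000026715, chromosome 1, 160806155 to 160833433) codes for antithrombin, the main plasma inhibitor of thrombin and factor X, and had a lowest, median and highest level of 1400, 1560 and 1690 CPM on the ketogenic diet, against 1860, 1940 and 2170 CPM on the control diet. The diets did not overlap (log2 fold change -0.36 ± 0.09, adjusted p = 0.0445). The fall is small, and the call was lost in 11 of the 12 fits with 1 library left out, in all but that without ketogenic 4 (adjusted p 0.0541 to 0.111 in those 11). It was also lost with no filter on low counts (adjusted p = 0.207), with library size as the scale (adjusted p = 0.0792) and with the trend on transcript length removed (adjusted p = 0.104).

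The protein C pathway held no call by edgeR, DESeq2 or limma-voom, and 0 of its genes had an unadjusted p under 0.05. Protein C (Proc), which inactivates factors V and VIII, was at -0.07 ± 0.10 (adjusted p = 0.79), its cofactor protein S (Pros1) at 0.02 ± 0.13 (adjusted p = 0.973), and the sign of Pros1 changed without ketogenic 6 or control 2 or 4. Protein Z (Proz) was at -0.08 ± 0.15 (adjusted p = 0.879), with the lowest library, ketogenic 4, at 176 CPM, and its sign changed without that library or with library size as the scale. Protein Z serves as cofactor of the inhibitor coded by Serpina10, which was at -0.34 ± 0.21 (adjusted p = 0.474). Heparin cofactor II (Serpind1), another thrombin inhibitor, was at -0.15 ± 0.12 (adjusted p = 0.637).

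In fibrinolysis, Cpb2 fell and Plg, Hrg and Serpinf2 did not pass the threshold. Cpb2 (ENSMUSG00000021999, chromosome 14, 75479727 to 75520995) codes for a carboxypeptidase that slows fibrinolysis by trimming the plasminogen-binding ends of fibrin, and had a lowest, median and highest level of 191, 217 and 288 CPM on the ketogenic diet, against 234, 323 and 459 CPM on the control diet. Control 5, at 234 CPM, lay inside the ketogenic range (log2 fold change -0.60 ± 0.15, adjusted p = 0.045). The call was lost without ketogenic 1, 2, 3 or 6 or control 1, 2, 3, 4 or 6 (adjusted p 0.0653 to 0.118 in those 9 fits). Plg (ENSMUSG00000059481, chromosome 17, 12597495 to 12638272), the plasmin precursor, had a lowest, median and highest level of 1100, 1730 and 1960 CPM on the ketogenic diet, against 1540, 2180 and 2480 CPM on the control diet (log2 fold change -0.33 ± 0.15, adjusted p = 0.294). Ketogenic 4 was far below the other ketogenic libraries in this gene. Hrg, a plasma protein that binds plasminogen and heparin, was at -0.25 ± 0.16 (adjusted p = 0.489) and Serpinf2, the main plasmin inhibitor, at -0.09 ± 0.13 (adjusted p = 0.811).

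**Figure D4:**
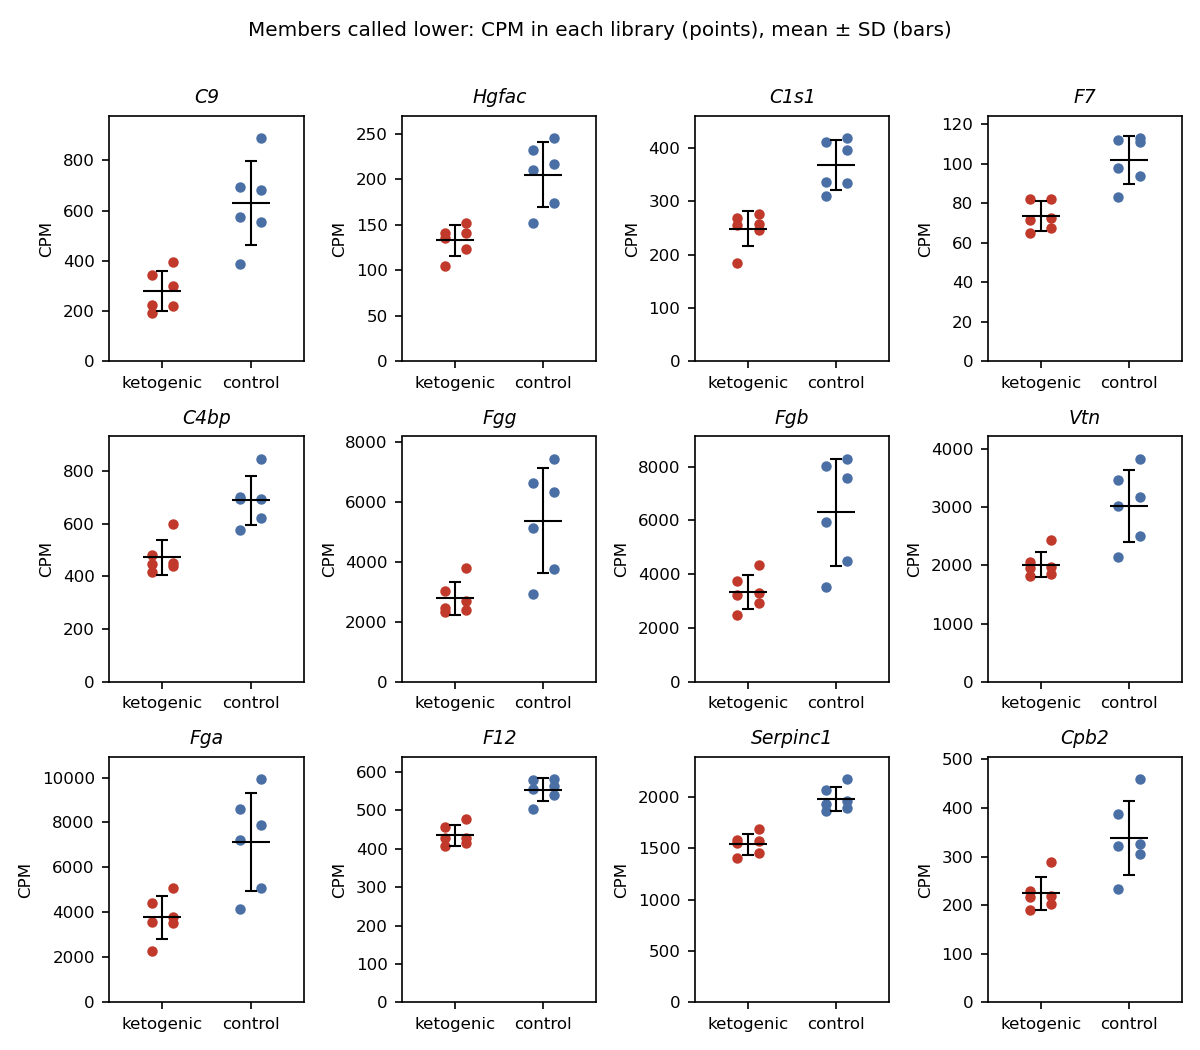
CPM in each library (points) of the 12 genes called lower, ordered by p, with mean ± SD (bars) and ketogenic left of control. Every panel starts at 0. In F7, F12, Serpinc1 and C1s1 the diets do not overlap, while in C9 the highest ketogenic library (394 CPM) is above the lowest control library (387 CPM).

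The classical pathway begins with the C1 complex, whose proteases are coded by C1ra and C1s1, and the lectin pathway with the mannose-binding lectins Mbl1 and Mbl2 and their proteases Masp1 and Masp2. Both pathways cut C4 (C4b) and C2. Of these 8 genes C1s1 fell, 0 rose and 7 did not pass the threshold. C1s1 (ENSMUSG00000038521, chromosome 6, 124507304 to 124519318) had a lowest, median and highest level of 185, 257 and 277 CPM on the ketogenic diet, against 309, 366 and 418 CPM on the control diet. The diets did not overlap (log2 fold change -0.56 ± 0.12, adjusted p = 0.0182), and the call held in all 12 fits with 1 library left out (adjusted p 0.0123 to 0.0473). Its neighbour and partner C1ra, 6902 bases away, was at -0.31 ± 0.10 (adjusted p = 0.104) and was called by DESeq2. The log2 ratio of C1ra over C1s1 was -0.188 ± 0.12 on the ketogenic and -0.443 ± 0.0969 on the control diet, and this difference was not tested. The near copies C1rb and C1s2 had means of at most 0.755 CPM on either diet, with 1.22 CPM in the highest library (C1rb, control 2).

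C4b (ENSMUSG00000073418, chromosome 17, 34947354 to 34962856), the most abundant of this group, had a lowest, median and highest level of 622, 1120 and 1610 CPM on the ketogenic diet, against 920, 1500 and 2550 CPM on the control diet (log2 fold change -0.54 ± 0.24, adjusted p = 0.283). Control 6 was highest and ketogenic 4 lowest, and C4a, a near copy whose reads can be shared, was at 14.0 CPM on the ketogenic and 14.9 CPM on the control diet. C2 was low, at 25.6 ± 3.90 CPM on the ketogenic and 34.8 ± 6.99 CPM on the control diet (log2 fold change -0.44 ± 0.14, adjusted p = 0.109), and was called without ketogenic 4. Mbl2 was at -0.37 ± 0.20 (adjusted p = 0.401) and Mbl1 at -0.04 ± 0.14 (adjusted p = 0.932). The direction of Mbl1 flipped with library size as the scale. Masp2 was at -0.09 ± 0.10 (adjusted p = 0.746) and Masp1 at 0.06 ± 0.16 (adjusted p = 0.913).

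C3, on which all complement pathways meet, Cfb, the protease of the alternative pathway, and properdin (Cfp), which stabilises that protease, held 0 calls by edgeR and limma-voom and 1 by DESeq2, that of C3. C3 (ENSMUSG00000024164, chromosome 17, 57510970 to 57535136) was the most abundant gene of the set in CPM and had a lowest, median and highest level of 3140, 5660 and 6620 CPM on the ketogenic diet, against 6650, 8040 and 15800 CPM on the control diet. Every ketogenic library was below every control library, the nearest being 6620 and 6650 CPM, yet the test did not pass (log2 fold change -0.74 ± 0.23, adjusted p = 0.0949). Control 6 held 15800 CPM and the next control library 8710 CPM, and without it the fold change was -0.51 (adjusted p = 0.159). Cfb was at 4.11 ± 1.17 CPM on the ketogenic and 5.42 ± 1.15 CPM on the control diet (log2 fold change -0.40 ± 0.21, adjusted p = 0.39). Its low level and that of C2 are uncertain, because the table also lists Gm20547, a gene on the same strand that covers nearly all of Cfb and part of C2. Cfp was at -0.04 ± 0.15 (adjusted p = 0.946), and its direction flipped with library size as the scale.

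The terminal pathway builds the membrane attack complex from C5 (coded by Hc in mice), C6, C7, the 3 chains of C8 and C9, which forms the wall of the pore. C9 had the lowest fold change of all 47 genes, 0 genes rose, and 5 did not pass the threshold. C9 (ENSMUSG00000022149, chromosome 15, 6474808 to 6528232) averaged 280 ± 79.1 CPM on the ketogenic and 630 ± 168 CPM on the control diet (mean ± SD, n = 6 each). It had a lowest, median and highest level of 194, 263 and 394 CPM on the ketogenic diet, against 387, 629 and 888 CPM on the control diet. Ketogenic 5 and control 5 overlapped, at 394 and 387 CPM (log2 fold change -1.17 ± 0.21, adjusted p = 0.00629). The call of C9 held in all 26 other settings tried, with an adjusted p of at most 0.0314, and in the 12 fits with 1 library left out its fold change ran from -1.29 to -1.04 (adjusted p 0.00347 to 0.0195).

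Hc (ENSMUSG00000026874, chromosome 2, 34873343 to 34951450), the most abundant gene of the terminal pathway, had a lowest, median and highest level of 415, 909 and 1010 CPM on the ketogenic diet, against 636, 983 and 1290 CPM on the control diet (log2 fold change -0.22 ± 0.22, adjusted p = 0.701). C6 was at -0.17 ± 0.24 (adjusted p = 0.808). The chains C8a and C8b, neighbours 11131 bases apart on chromosome 4, were at -0.46 ± 0.26 (adjusted p = 0.416) and -0.49 ± 0.25 (adjusted p = 0.353). C8g, on chromosome 2, was at -0.15 ± 0.18 (adjusted p = 0.771). Within libraries C8a and C8b kept a log2 ratio of 1.21 ± 0.204 on the ketogenic and 1.14 ± 0.256 on the control diet, while C8a over C8g spread from -0.309 to 1.827 among ketogenic and from 0.274 to 2.359 among control libraries. Ketogenic 4 was low in C8a (352 CPM) and highest of all libraries in C8g (436 CPM), whose longest transcript has 1150 bases against 3617 for C8a. The part of transcript length in these single values was not tested.

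Among the 5 regulators, C4bp and Vtn fell, 0 rose, and Cfi, Serping1 and Clu did not pass the threshold. C4bp (ENSMUSG00000026405, chromosome 1, 130562510 to 130589369), C4b-binding protein, which restrains the classical pathway, had a lowest, median and highest level of 417, 449 and 600 CPM on the ketogenic diet, against 576, 692 and 846 CPM on the control diet. Ketogenic 5 lay inside the control range (log2 fold change -0.54 ± 0.12, adjusted p = 0.0226). The call was lost without ketogenic 3 or 6 or control 3 (adjusted p 0.0580 to 0.0599 in those 3 fits). Vtn (ENSMUSG00000017344, chromosome 11, 78389917 to 78393150), vitronectin, which blocks the insertion of the terminal complex and also binds a plasminogen activator inhibitor, had a lowest, median and highest level of 1810, 1960 and 2430 CPM on the ketogenic diet, against 2150, 3100 and 3830 CPM on the control diet. Control 5 and ketogenic 5 overlapped (log2 fold change -0.59 ± 0.14, adjusted p = 0.0358), and the call was lost without ketogenic 1, 2, 3 or 6 or control 1, 2, 3 or 6 (adjusted p 0.0584 to 0.0949 in those 8 fits).

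Cfi, the protease that cuts C3b and C4b, was at 555 ± 68.6 CPM on the ketogenic and 775 ± 156 CPM on the control diet (log2 fold change -0.48 ± 0.14, adjusted p = 0.0708), and was called by DESeq2. Serping1, the inhibitor of C1 and of kallikrein, was at -0.39 ± 0.16 (adjusted p = 0.234), with control 6 highest at 1280 CPM. Clusterin (Clu), another inhibitor of the terminal complex, was at -0.31 ± 0.15 (adjusted p = 0.32).

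Levels can be compared between genes only per length of transcript. Per kilobase of the longest transcript, the order on the control diet ran from Fgg (3090 CPM per kb), Fga (2760), C3 (1750), Vtn (1740) and Fgb (1650) down to F11 (22.8), Cfp (21.3), C2 (13.2) and Cfb (1.97). On the ketogenic diet Fgg (1600) and Fga (1460) still led, followed by Vtn (1150), C3 (1040), Clu (883) and Fgb (878). Fgg and Fga lay within the spread of libraries of each other on both diets. So did C3, Vtn and Fgb on the control diet, and Vtn and C3, as well as Clu and Fgb, on the ketogenic diet. The genes that were called lower stood from the top of this order (Fgg) to its lower part (F7, 39.6 on the ketogenic and 54.8 on the control diet).

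**Figure D5:**
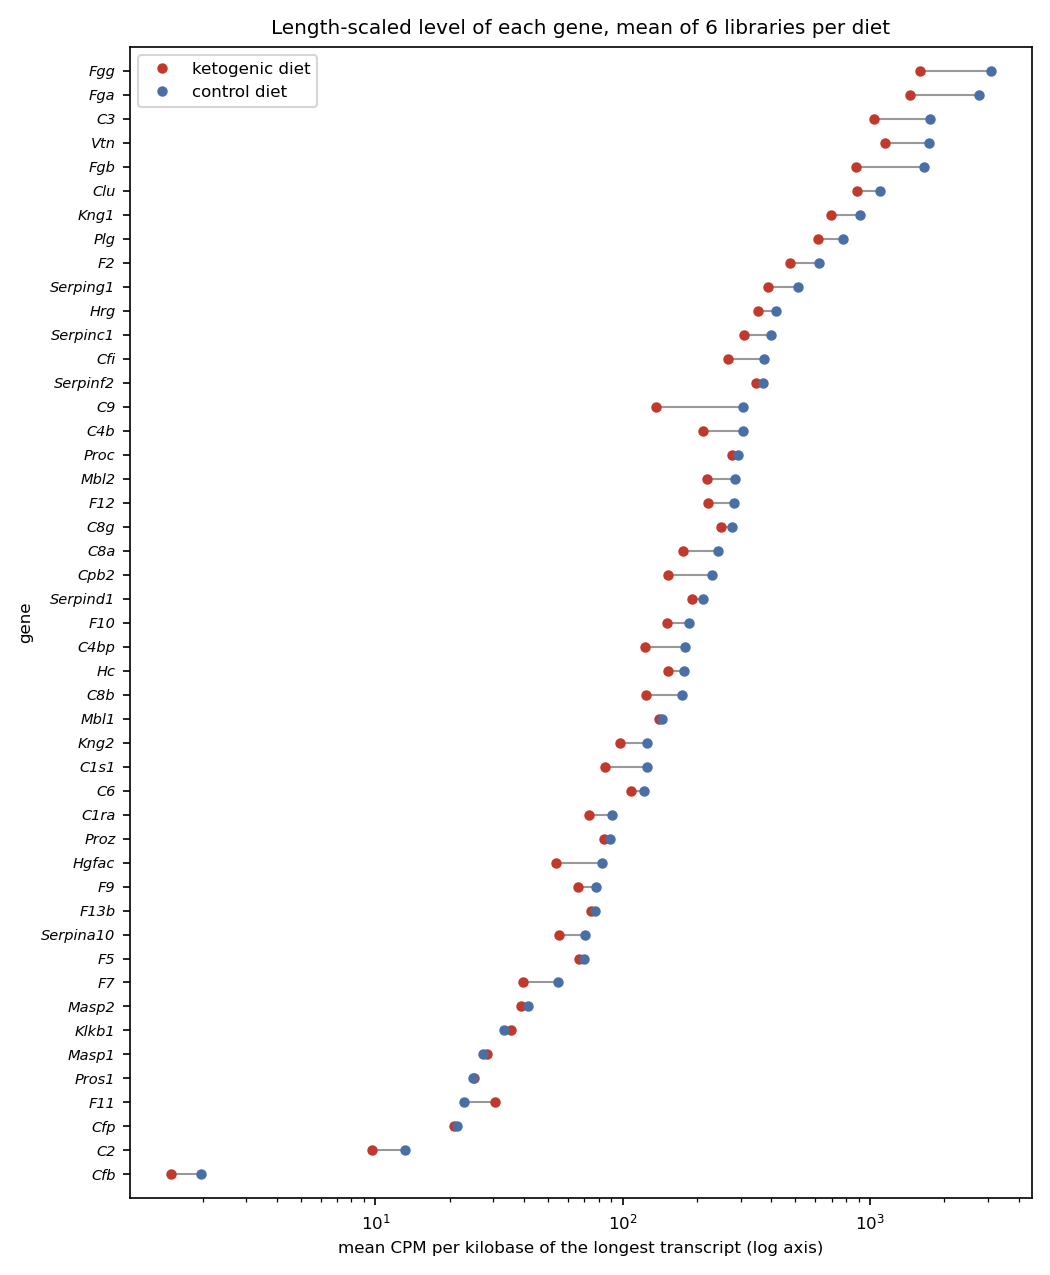
Mean CPM per kilobase of the longest transcript (log axis) of the 47 genes on the ketogenic and the control diet, 6 libraries each, ordered by the control level. The levels reach from 3090 (Fgg, control) to 1.49 (Cfb, ketogenic), and the ketogenic mean lies to the left for 43 of 47 genes.

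Genes of the same pathways outside the set were counted in 5 further lists. Of 27 other coagulation and fibrinolysis genes tested, 1 fell, 0 rose and 26 did not pass the threshold, with 5 lower and 2 higher at an unadjusted p under 0.05. DESeq2 called 2 lower and 0 higher, and limma-voom 1 and 0. Ambp, which codes for a protease inhibitor chain of the inter-alpha-trypsin inhibitor family, had 1570 CPM on the ketogenic and 2520 CPM on the control diet (log2 fold change -0.68 ± 0.13, adjusted p = 0.00930). The heavy chains that this inhibitor chain is joined to, Itih1 (-0.34), Itih2 (-0.25) and Itih3 (-0.82), did not pass (adjusted p = 0.252, 0.491 and 0.163). F8 and Vwf, which liver endothelium makes, were at -0.355 (adjusted p = 0.335) and 0.31 (adjusted p = 0.231).

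Of 33 other complement genes, 2 fell, 1 rose and 30 did not pass the threshold, with 6 lower and 2 higher at an unadjusted p under 0.05. DESeq2 called 5 lower and 1 higher, and limma-voom 2 and 0. The genes Cfhr2 and Cfhr4, near copies of each other that may share reads, were at -0.52 ± 0.0993 (adjusted p = 0.00902) and -0.73 ± 0.14 (adjusted p = 0.0110). Cfd, the protease adipsin of the alternative pathway, was at 9.84 CPM on the ketogenic and 0.192 CPM on the control diet (5.67 ± 1.05, adjusted p = 0.00946) and was not called by limma-voom (adjusted p = 0.173). It is also a marker of fat cells, and the summed level of 6 adipocyte markers, of which Cfd is 1, was 8.85 to 42.9 CPM in ketogenic and 5.89 to 12.2 CPM in control libraries. In ketogenic 3, 5 and 4, Cfd itself held 29.2, 17.5 and 6.56 CPM of sums of 42.9, 29.2 and 37.5 CPM. The sum is therefore no separate measure of fat cells, and a sum without Cfd was not computed. The C1q genes C1qa, C1qb and C1qc, made by macrophages, were at 0.09, 0.12 and -0.02 (adjusted p = 0.869, 0.822 and 0.977).

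Of 13 genes of the vitamin K cycle and of factor secretion, 0 were called by edgeR or limma-voom and 1 by DESeq2, with 1 lower and 2 higher at an unadjusted p under 0.05. Ggcx, the enzyme that carboxylates the vitamin K-dependent factors, was at -0.18 (adjusted p = 0.633), and the factor V and VIII cargo receptor gene Lman1 at -0.27 (adjusted p = 0.342). Of 17 transcription factors of the liver, 0 were called by edgeR, DESeq2 or limma-voom and 0 had an unadjusted p under 0.05. Hnf4a was at -0.21 ± 0.16 (adjusted p = 0.597) and Cebpb at 0.59 ± 0.29 (adjusted p = 0.333). Of 17 genes of interleukin 6 and glucocorticoid signalling tested, 0 were called by any of the 3 tools, and 3 were lower at an unadjusted p under 0.05. Those 3 were Il1b (-1.03, adjusted p = 0.256 by edgeR), Il1r1 (-0.63, adjusted p = 0.161) and Jak2 (-0.27, adjusted p = 0.258). Il6ra was at 0.47 ± 0.22 (adjusted p = 0.316), Stat3 at -0.34 ± 0.22 (adjusted p = 0.482) and Socs3 at 0.09 ± 0.41 (adjusted p = 0.952). A p that misses the threshold does not show that these genes did not respond.

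Markers of other cell types were read beside these results. The summed level of 12 macrophage markers was 643 to 1060 CPM in ketogenic and 563 to 1000 CPM in control libraries, that of 12 endothelial markers 593 to 800 CPM in ketogenic and 557 to 749 CPM in control libraries, and that of 12 stellate and fibroblast markers 377 to 772 CPM in ketogenic and 372 to 976 CPM in control libraries. The sum of 10 neutrophil and lymphocyte markers was 10.3 to 21.6 CPM in ketogenic and 7.15 to 11.6 CPM in control libraries. Platelet and megakaryocyte markers, which would come with clotted blood, summed to 3.74 to 8.79 CPM in ketogenic and 3.46 to 8.42 CPM in control libraries. In the lists of these cell types 0 genes were called by edgeR other than Cfd, and among hepatocyte markers Cyp2e1 was called higher. Of 12 hepatocyte markers 7 had a fold change below 0 (median log2 -0.187). So did 1 of 12 endothelial (median 0.14) and 1 of 8 neutrophil and lymphocyte markers tested (0.438). At an unadjusted p under 0.05 by edgeR, hepatocyte markers had 1 lower and 2 higher, and the other lists just named 0 lower and 2 higher each. Medians were 0.024 for macrophage, -0.132 for stellate and fibroblast and 0.108 for bile duct markers. Bile duct markers summed to 61.3 to 172 CPM in ketogenic and 64.1 to 111 CPM in control libraries. Ketogenic 4 was the highest ketogenic library for bile duct (172 CPM, next 90.2) and for stellate and fibroblast markers (772 CPM, next 575). It was also highest for neutrophil and lymphocyte (21.6 CPM, next 17.8) and platelet markers (8.79 CPM, next 5.18). For endothelial markers it was the lowest (593 CPM), and for macrophage markers ketogenic 6 was highest (1060 CPM). Of the lists, 3 of 7 platelet, 1 of 10 neutrophil and lymphocyte and 4 of 6 adipocyte markers were at 0 in some libraries, and 0 markers were at 0 in all. F8, Vwf, the C1q genes and Cfd stand in a marker list as well as in a pathway list. The part of other cells in the falls of the 12 genes was not tested.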

How the data were processed

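RNA of mouse liver was sequenced, with 6 libraries per diet. The authors deposited a single table that gives, per gene and library, a raw count of reads without normalization. Per the labels, RNA came from a column kit (RNeasy) and libraries from an NEBNext Ultra kit. The submitters' processing notes name HISAT2 2.1.0, StringTie 1.3.4d, fastp 0.19.3 and Cufflinks with no role. Build, annotation, counting program and strandedness are not given in the sources used, so antisense, overlapping and near-copy genes can share reads. Totals were 30176579 to 33538911 counts, with no molecular identifiers given. No 2 libraries of a diet agreed within sampling noise (lowest chi-square per degree of freedom 40.8 over genes with at least 50 counts).

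In edgeR 4.0.16 (R 4.3.3), low genes were removed with filterByExpr, TMM factors were computed and the quasi-likelihood test was run (robust) on diet alone, with Benjamini-Hochberg adjustment over all genes tested. Each SE was taken as the absolute log2 fold change divided by the root of F. On simulated counts for 13810 genes in this comparison, the test recovered 67 of 97 genes at a simulated log2 fold change of 1 and 93 of 98 at 2, and 6 of 166 calls were unchanged genes. Smaller changes, such as those of the called genes other than C9, were not simulated, nor was a trend on transcript length. Transcript lengths are the longest transcript per gene ID in GENCODE M21 (GRCm38), present for 99.8% of genes tested. Alternatives were DESeq2 1.42.0, limma-voom (limma 3.58.1), RLE factors, library size, other filters and thresholds, a test against a 1.2-fold change, removal of the 10 most abundant genes, the replicate number as a block, removal of the trend on transcript length (spline with 4 degrees of freedom), 1 surrogate variable (sva 3.50.0) and each library left out. TMM factors without the 47 genes, the overlap counts by scale and library, and the settings for called genes outside the set were added after the data were seen. All 47 genes are named, with library values for called genes and for the most abundant gene and that with the smallest p in each of 10 role groups. Members and lists were chosen with earlier results of these data known.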

Additional observations from a re-analysis of the deposited data

Results flagged for a closer look

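Within a diet, 11 of 94 sets of 6 values (47 genes, 2 diets) had a library far from the other 5 by Dixon's test, which chance gives in about 1 of 20 sets. Ketogenic 4 was the low library in 5 of them: Plg at 1100 CPM (next 1700), C1s1 at 185 CPM (next 247), Masp1 at 85.6 CPM (next 148), Cfb at 1.92 CPM (next 4.12) and Hc at 415 CPM (next 789). Control 6 stood apart in 4, high in C3 at 15800 CPM (next 8710), Kng1 at 3340 CPM (next 2010) and Kng2 at 471 CPM (next 275), and low in C8g at 235 CPM (next 323). Ketogenic 6 was high in Pros1 at 114 CPM (next 81.9), and ketogenic 5 was high in C4bp at 600 CPM (next 482).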

How the results depend on the processing

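The number of the 47 genes called lower was 12, and it was 9 to 17 under 9 settings: DESeq2, limma-voom, RLE factors, library size only, removal of the 10 most abundant genes, both other filters, removal of the length trend and 1 surrogate variable. With TMM factors computed without the 47 genes it was 12. It was 1, C9, at an adjusted p under 0.01, with a test against a 1.2-fold change, with the replicate block, and with the block and the length trend removed. In no setting was a gene of the set called higher. With 1 library left out the number called lower ran from 3 to 14, and the number without overlap from 5 to 14. Over all genes, 529 were called, against 1028 with DESeq2, 197 at an adjusted p under 0.01, 230 with the 1.2-fold test, 268 with the replicate block, 1318 with 1 surrogate variable (51.9% of them rises) and 319 to 761 with 1 library left out.

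The labels do not say what the replicate numbers stand for. The correlation of deviations of same-numbered libraries was over 0.1 in 3 of 6 pairs, from -0.291 to 0.336. Of 12 libraries, 4 correlated best with their own number. These values do not decide whether the numbers pair the libraries. The fit with the replicate block, which called only C9 of the 47 genes, is therefore given beside the main fit.

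Genes near 0 changed sign. With library size as the scale F5 (0.013), F13b (0.013), Proz (0.002), Mbl1 (0.032) and Cfp (0.042) did, and Pros1 (-0.008) did with the block and the length trend removed. With 1 library left out, F5 ran from -0.167 to 0.085, Proz from -0.133 to 0.031, Pros1 from -0.096 to 0.063, Mbl1 from -0.104 to 0.018 and Cfp from -0.129 to 0.028. None of them was called in any setting. The cause was not tested. Depth limits Cfb most, at 1.92 to 7.29 CPM, while 41 of the 47 genes had at least 100 CPM.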
